A study of Mus musculus with 24 samples.

Results

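Hyperplasia was compared with the normal mammary gland at week 6, in 3 PyMT mice and 3 FVB mice of that age, which are 6 of the 24 samples of a series that follows both genotypes through weeks 6, 8, 10 and 12. The 6 samples were taken by genotype and week from the labels, and no measured value entered their choice. PyMT females were F1 offspring of FVB females and male carriers of the strain FVB/N-Tg(MMTV-PyVT)634Mul/J. They were heterozygous for the polyoma middle T transgene, which the long terminal repeat of mouse mammary tumor virus drives in mammary epithelium. The controls were FVB females of the same age without the transgene, both genotypes share the FVB background, and the labels name no agent given to either. The paper describes the tissue as mammary tumor for PyMT and as normal mammary gland for FVB, all of it snap frozen, with no sorting of cells described. Each library therefore holds the RNA of epithelium, fat, stroma and vessels together. In such bulk RNA fewer cells of a type and less RNA per cell cannot be told apart. The kind of tissue collected went with genotype, so an effect of dissection cannot be told apart from one of genotype either. Reads of the transgene were not analysed here.

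Middle T is a membrane-bound viral scaffold protein that recruits Src family kinases, PI3K, Shc and PLC-gamma and so feeds the MAPK and AKT pathways. The virgin mammary gland is a sparse tree of ducts in a pad of fat. Its ducts have an inner layer of luminal cells, some of which carry estrogen and progesterone receptors and some of which can turn into milk-secreting alveolar cells, and an outer layer of contractile basal cells. Hyperplasia is the first lesion stage in this model, an overgrowth of epithelium before adenoma and carcinoma.

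Total counts were 7701687 to 13516601 in the PyMT libraries and 9630077 to 11376792 in the FVB libraries. Levels are given below as normalized counts, which are counts divided by DESeq2's size factors, in the order of replicates 1, 2 and 3. Of the 14918 genes tested, 423 to 1455 had a count of 0 in the PyMT libraries and 35 to 401 in the FVB libraries, with the most in PyMT replicate 2. In that library the number of genes by count peaked at 25 counts instead of falling from 1, and lesser peaks lay at 14 and 13 counts in PyMT replicates 1 and 3 and at 12 in FVB replicate 2. Low counts in these libraries are therefore coarse, and counts divided by the size of the peak gave 579 genes higher and 1345 lower, against 534 and 964 from the counts as deposited.

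The labelled tissue carried the markers of mammary gland in every sample, and the summed marker RNA of several cell types differed between the genotypes. The summed normalized count of 5 luminal markers (Krt8, Krt18, Epcam, Cldn3 and Cldn7) was 14604 to 17929 in PyMT and 4887 to 6932 in FVB. The sum of 5 adipocyte markers was 4833 to 12983 in PyMT against 37499 to 49645 in FVB, that of 5 fibroblast markers 21871 to 29373 against 79443 to 144700, and that of 4 endothelial markers 1181 to 1575 against 3430 to 6396. None of these ranges overlapped. The 3 macrophage markers summed to 823 to 1160 in PyMT and 998 to 1444 in FVB, which did overlap. The 5 lymphocyte markers were nearly absent, with sums of at most 21.0 and all 5 at 0 in PyMT replicates 1 and 2.

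The control libraries differed widely in muscle RNA, and FVB replicate 1 held the most. Its 5 skeletal muscle markers summed to 462640, against 108430 in FVB replicate 2, 67.8 in FVB replicate 3 and 3493 to 27610 in PyMT. It also held epidermal keratinocyte RNA, with a sum of 2311 over Krt1, Krt10, Lor and Flg, where the other 5 libraries had at most 15.0. PyMT replicate 2 differed from the other PyMT libraries in brown adipocyte markers, whose sum was 5354 there and 324 and 331 in the others. The contribution of these tissues to the results below was not tested. A list's count without FVB replicate 1 or PyMT replicate 2 is given where it moved by more than 1.5 times and by at least 2 genes.

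**Figure D1:**
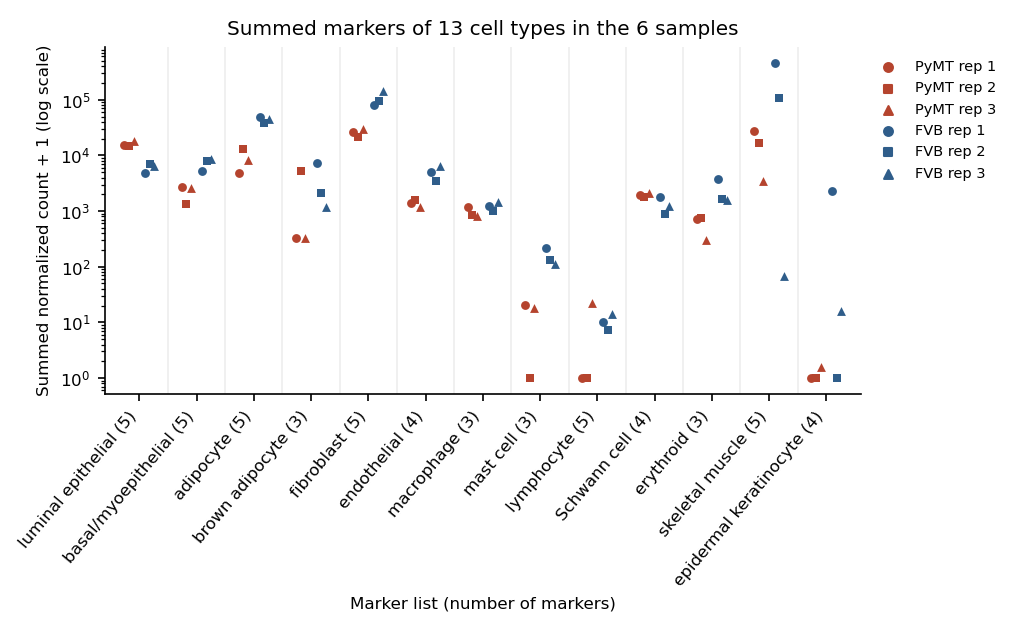
Summed normalized counts plus 1 (log scale) of the markers of 13 cell types, with the number of markers in parentheses, in each of the 3 PyMT (red) and 3 FVB (blue) libraries. Luminal sums were higher in PyMT (14604 to 17929 against 4887 to 6932), adipocyte, fibroblast and endothelial sums were lower, and the muscle and keratinocyte sums were far higher in FVB replicate 1 (462640 and 2311) than in any PyMT library. The muscle sum of FVB replicate 2 (108430) also lay above all PyMT libraries, and that of FVB replicate 3 (67.8) below them.

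In the quasi-likelihood test of edgeR, with p values adjusted by Benjamini and Hochberg's method over all genes tested, 1498 genes (10.0%) passed an adjusted p of 0.05 and changed by more than 2 times. Of them, 534 (3.58% of the genes tested) were higher and 964 (6.46%) were lower in PyMT, and the log2 fold change had a median of -0.08 over all genes tested. Scaling by library size only moved this median to 0.19 and turned the split into 779 higher and 654 lower, so that 45.6% instead of 64.4% of the calls were decreases. The directions of the gene groups below were the same under both scalings unless stated. All 3 PyMT samples lay above all 3 FVB samples for 2412 genes (16.2%) and below them for 3041 genes (20.4%). The shares of 3.58%, 6.46%, 16.2% and 20.4% are the background for counts of called or non-overlapping list members below. Without FVB replicate 1, 480 genes were higher and 693 lower, and without PyMT replicate 2 the counts were 582 and 1024. In 27 of the genes called lower every PyMT library was at 0, and in 2 called higher every FVB library was at 0, so their fitted fold changes are not bounds of any kind. In edgeR's quasi-likelihood test, a call named below held when each of the 6 libraries in turn was left out, unless a loss is stated.

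**Figure D2:**
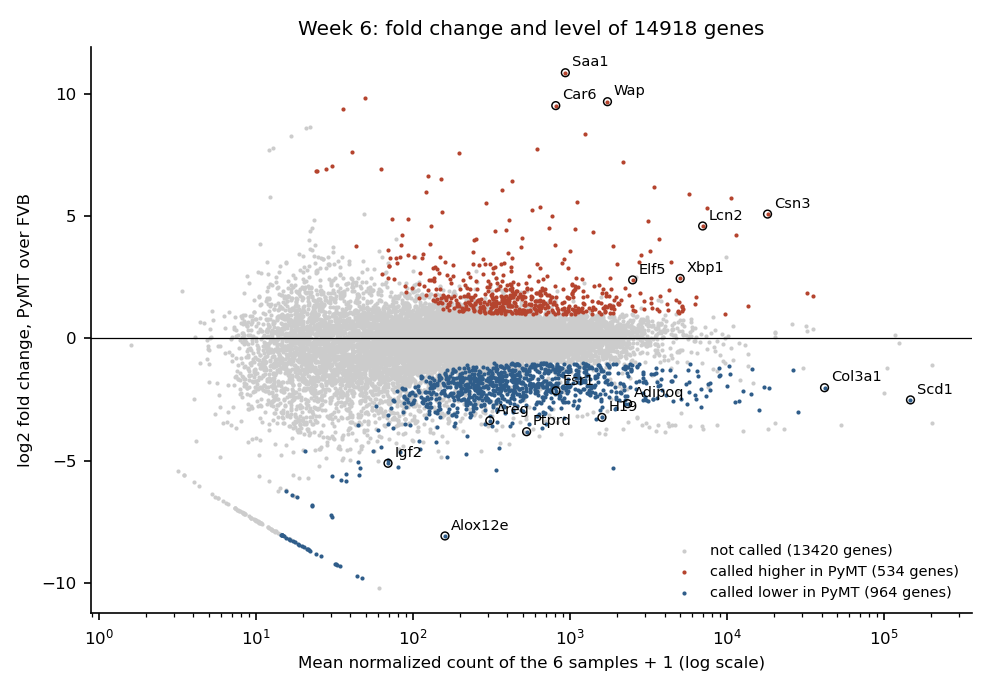
log2 fold change of PyMT over FVB against the mean normalized count of the 6 samples plus 1 (log scale) for 14918 genes, with the 534 genes called higher in red and the 964 called lower in blue. Saa1, Wap and Car6 lie at the top of the increases with log2 fold changes of 10.85, 9.67 and 9.51, and the diagonal of points at the lower left holds genes with a count of 0 in all PyMT libraries.

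**Figure D3:**
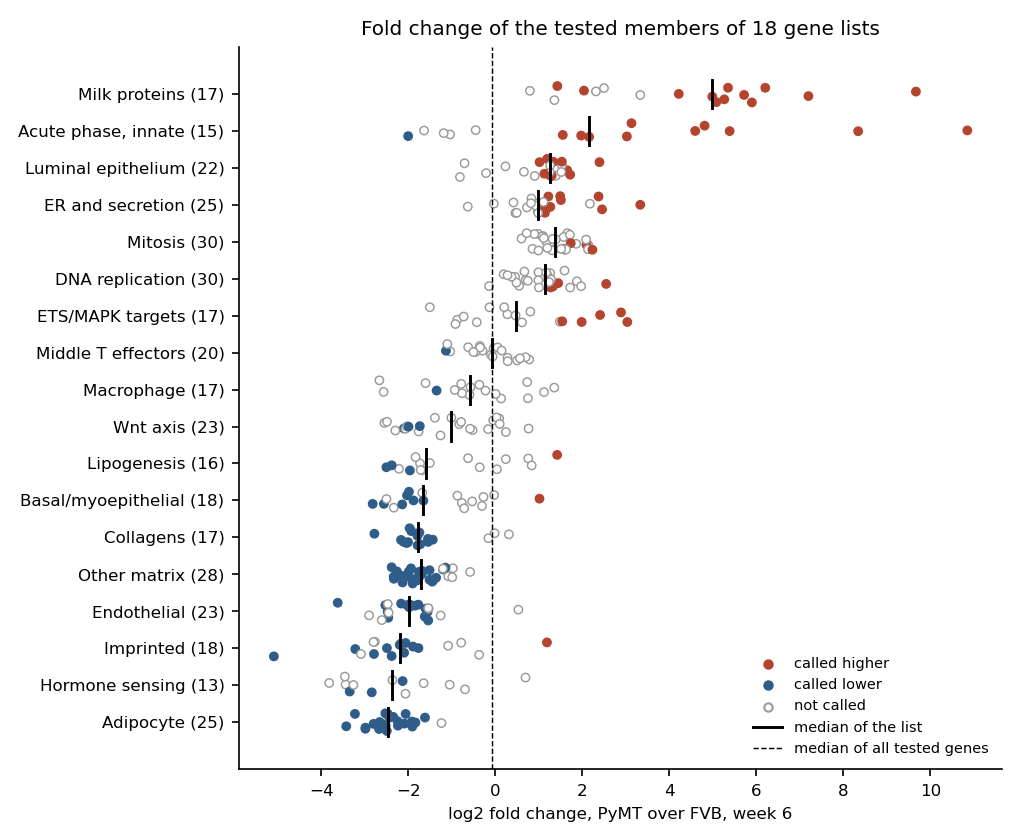
log2 fold change (PyMT over FVB) of each tested member of 18 gene lists, with the number of tested members in parentheses, filled where called, a bar at each list's median and a dashed line at the median of all tested genes (-0.08). Milk protein genes have the highest median (4.99) of the lists drawn and adipocyte genes the lowest (-2.48), while the genes of middle T effectors center on the dashed line.

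The milk program had the highest median change of the 28 gene lists examined. The lists were chosen with earlier results of these data known, so their ranks, counts and medians are a description. Of 20 milk protein and milk fat globule genes, 17 were tested, 12 rose and 0 fell, where 3.58% of all tested genes rose and 6.46% fell. Their median log2 fold change was 4.99, and all 17 were positive. Wap, whey acidic protein (chr11:6531490-6538652 of mm9, minus strand), had normalized counts of 5236, 1544 and 3592 in PyMT against 11.6, 0 and 2.64 in FVB. Lalba, the lactose synthase subunit alpha-lactalbumin (chr15:98310831-98313114 of mm9, minus strand), had 9864, 4199.7 and 6292 in PyMT against 259.6, 16.2 and 1.76 in FVB. Every PyMT sample exceeded every FVB sample by a wide margin for both genes. The log2 fold change was 9.67 ± 0.93 (SE) for Wap (edgeR adjusted p = 0.00155) and 6.20 ± 1.42 (SE) for Lalba (edgeR adjusted p = 0.027). The Lalba call ended when FVB replicate 2, PyMT replicate 1 or PyMT replicate 3 was left out, with an edgeR adjusted p of up to 0.0885, and the Wap call held without each of the 6 libraries. Under limma voom with sample quality weights the Wap call was lost (adjusted p = 0.0539).

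The caseins, the main proteins of milk, were present at a low level in the FVB gland and at a high level in PyMT. Csn2, beta-casein, had 23382, 5302 and 15143 in PyMT against 133, 805 and 137 in FVB. Csn3, kappa-casein, had 42437, 24887 and 38148 in PyMT against 1756, 785 and 560.3 in FVB. Csn1s1, an alpha-S1 casein, had 39009, 8239.8 and 17846 in PyMT against 446, 2222 and 836 in FVB. PyMT replicate 2 was the lowest PyMT library for all of these and still above all FVB libraries. Their log2 fold changes were 5.35 ± 0.92 (SE), 5.08 ± 0.52 (SE) and 4.21 ± 0.76 (SE), with edgeR adjusted p of 0.00917, 0.00166 and 0.0112. Per kilobase of exon the mean PyMT level was 8468 normalized counts for Csn3, 13020 for Csn2, 15334 for Csn1s1 and 1245 for Wap, and the mean FVB level was 249, 319, 826 and 1.71. Csn1s2a also rose (5.90 on the log2 scale), and reads could be split between it and its close relative Csn1s2b, which was not tested and had 53.4, 32.3 and 60.1 in PyMT against 0, 0 and 9.69 in FVB.

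Other secretory genes of the alveolar cell moved with the caseins. Slc34a2, a sodium-phosphate transporter, had 1464, 1314 and 1672 in PyMT against 61.4, 36.3 and 43.2 in FVB. Folr1, a folate receptor found in milk, had 1402, 694 and 1268 in PyMT against 20.9, 50.1 and 15.0 in FVB, and Lao1, an L-amino acid oxidase of mouse milk, had 5072, 2854 and 4996 in PyMT against 78.8, 10.0 and 2.64 in FVB. PyMT libraries were far above FVB libraries for all of these. Their log2 fold changes were 4.99 ± 0.28 (SE), 5.26 ± 0.52 (SE) and 7.20 ± 1.05 (SE) (edgeR adjusted p = 2.32e-04, 0.0016 and 0.00489). Spp1, osteopontin, rose by 5.72 on the log2 scale, and this call was lost without FVB replicate 2 (edgeR adjusted p = 0.0572). Xdh, a xanthine oxidoreductase of the milk fat globule, rose with 7073, 5301 and 5646 in PyMT against 3621, 1338 and 1713 in FVB (1.42 ± 0.38 (SE), edgeR adjusted p = 0.0452) and was called in 1 of the 6 fits without a library, the one without FVB replicate 1. Btn1a1, the fat globule protein butyrophilin, had 6612, 2958 and 3875 in PyMT against 1969, 207 and 183 in FVB, and Ltf, the whey protein lactoferrin, had 23691, 11437 and 19028 in PyMT against 4956, 214 and 153 in FVB, and neither passed the test (edgeR adjusted p = 0.115 and 0.126). For both, FVB replicate 1 lay far above the other FVB libraries without reaching the PyMT libraries. The list had 14 increases without FVB replicate 1 or PyMT replicate 2, 11 without FVB replicate 3, 10 without PyMT replicate 1 or PyMT replicate 3 and 9 without FVB replicate 2. Glycam1, a mucin-like whey protein left out by the filter on low counts, had 2234, 294 and 460.1 in PyMT against 9.27, 0 and 0 in FVB.

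STAT5 is the factor through which prolactin turns on casein genes, and its binding site has the letters TTCNNNGAA on either strand. Among RefSeq promoters, 3 of the 15 milk genes with a window (Csn1s1, Csn2 and Glycam1) held this motif in the 250 bases before the start, against 8.13% of 27025 genes. The windows of Csn2 and Csn1s1 are shown because both caseins rose and hold the motif. They are written 5′ to 3′ on the gene's strand with the motif in capitals, come from the RefSeq table of GRCm38.p6 (C57BL/6J sequence) and matched mm9 exactly at chr5:88128451-88128700 (minus strand) and chr5:88094983-88095232 (plus strand). The match is a description of the letters and not of binding in these samples.
Csn2: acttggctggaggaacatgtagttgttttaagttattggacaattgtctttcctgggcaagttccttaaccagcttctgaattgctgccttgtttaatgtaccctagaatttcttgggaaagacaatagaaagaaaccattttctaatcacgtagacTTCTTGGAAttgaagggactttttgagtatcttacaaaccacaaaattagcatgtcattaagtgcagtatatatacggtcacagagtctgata
Csn1s1: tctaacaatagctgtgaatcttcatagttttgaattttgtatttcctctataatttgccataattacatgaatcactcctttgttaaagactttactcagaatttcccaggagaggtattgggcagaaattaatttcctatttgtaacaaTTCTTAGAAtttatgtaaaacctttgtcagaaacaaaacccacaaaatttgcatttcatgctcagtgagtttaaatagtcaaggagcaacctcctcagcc

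**Figure D4:**
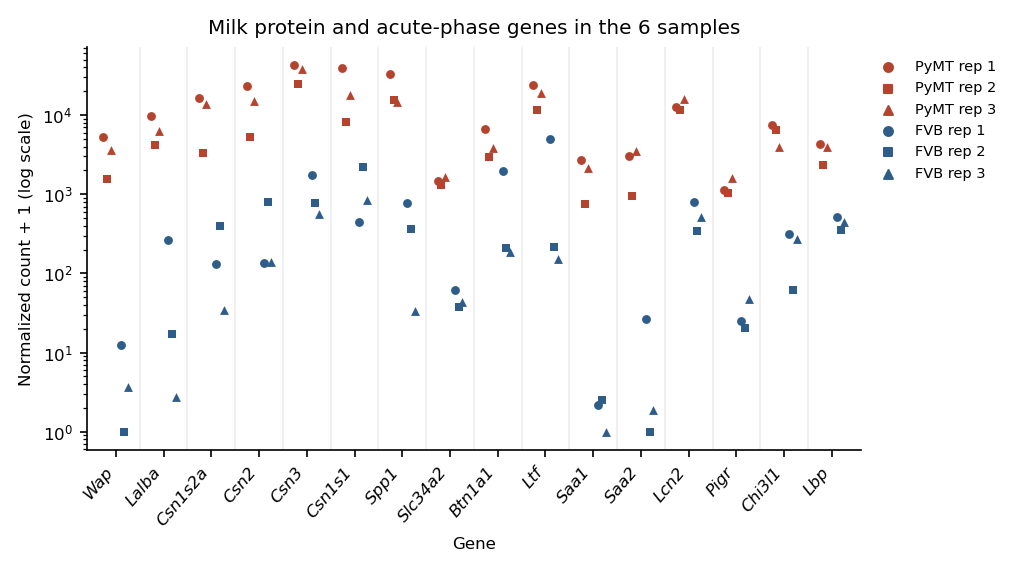
Normalized count plus 1 (log scale) of 10 milk genes and 6 acute-phase genes in each PyMT (red) and FVB (blue) library, with replicates 1, 2 and 3 as circles, squares and triangles. All PyMT points lie above all FVB points for each of the 16 genes, and Btn1a1 and Ltf show FVB replicate 1 (1969 and 4956) far above FVB replicates 2 and 3.

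Acute-phase and innate secretory proteins, which coat mucosal surfaces and bind iron or bacterial products, formed a second group of large increases. Of 17 genes, 15 were tested, 10 rose and 1 fell, with a median log2 fold change of 2.15. Saa1, serum amyloid A1 (chr7:53995871-53998350 of mm9, minus strand), had the largest increase among genes whose normalized counts averaged 100 or more, with 2699, 751 and 2146 in PyMT against 1.16, 1.54 and 0 in FVB. Saa2, at chr7:54007203-54009684 of mm9, plus strand, had 3046, 950.1 and 3501 in PyMT against 25.5, 0 and 0.881 in FVB. Both were close to 0 in the FVB glands. The fitted log2 fold changes were 10.85 ± 0.79 (SE) and 8.34 ± 1.16 (SE) (edgeR adjusted p = 6.55e-04 and 0.00412), and since these genes are near copies of each other reads could be split between them. Both calls were lost under limma voom with sample quality weights, with adjusted p of 0.0842 for Saa1 and 0.0748 for Saa2. Saa3, which the filter removed, had 65.9, 55.3 and 36.9 in PyMT against 0, 0 and 0 in FVB.

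Lcn2, the iron-siderophore binding lipocalin, had 12626, 11501 and 16147 in PyMT against 795, 346 and 522 in FVB. Pigr, the receptor that carries IgA across the epithelium into milk, had 1143, 1034 and 1604 in PyMT against 24.3, 19.3 and 46.7 in FVB. Chi3l1, a secreted chitinase-like protein, had 7582, 6495 and 3996 in PyMT against 311, 60.9 and 269.6 in FVB. The 3 genes did not overlap between the groups and rose by 4.59, 5.38 and 4.81 on the log2 scale (SE 0.38, 0.39 and 0.61; edgeR adjusted p = 0.00103, 6.55e-04 and 0.00303). The lipopolysaccharide-binding proteins Lbp (3.02) and Cd14 (1.55), the copper carrier Cp (1.97), Wfdc18 (3.13) and Lrg1 (2.15) rose as well. Orm1, an orosomucoid, fell by 2.01 on the log2 scale, a call that was kept in 1 of the 6 fits without a library. Hp, haptoglobin, overlapped between the groups at 426, 1679 and 605 in PyMT against 1508, 1022 and 1122 in FVB. Leaving out a library gave 9 or 10 increases on this list. Lrg1 lost its call without FVB replicate 2, FVB replicate 3, PyMT replicate 1 or PyMT replicate 3 (edgeR adjusted p up to 0.0660).

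Among the 12 largest increases above the same level, 5 were milk or acute-phase genes (Saa1, Wap, Saa2, Lao1 and Lalba). Car6, a secreted carbonic anhydrase, had 1173, 2412 and 1272 in PyMT against 0, 2.31 and 3.52 in FVB. Bhlha15, a transcription factor of secretory cells also named Mist1, had 751, 1021 and 769 in PyMT against 1.16, 10.8 and 15.9 in FVB, and Slc30a2, which moves zinc into secretory vesicles, had 358, 214 and 313 in PyMT against 3.48, 0 and 6.17 in FVB. Each was near 0 in FVB and far above it in PyMT. They rose by 9.51, 6.43 and 6.52 on the log2 scale (edgeR adjusted p = 3.21e-04, 0.00124 and 0.00317). Cldn2, a pore-forming claudin of tight junctions, had 293, 597 and 284 in PyMT against 6.95, 0 and 0 in FVB, with a log2 fold change of 7.56 ± 1.02 (SE) (edgeR adjusted p = 0.00378). The others were Ankrd22 (6.64), 2310057J18Rik (7.75) and Abpb (6.04), the last of which belongs to a family of near-identical genes and is uncertain. The calls of 2310057J18Rik and Abpb were lost under limma voom with sample quality weights (adjusted p = 0.161 and 0.0621).

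Genes of the endoplasmic reticulum, where secreted proteins are folded and loaded into vesicles, were higher in PyMT, with smaller changes. All 25 genes on the list were tested, 10 rose and 0 fell, and the median log2 fold change was 0.98. In 22 of the 25 all PyMT samples lay above all FVB samples. Among all tested genes 3.58% rose, 6.46% fell and 16.2% had all PyMT samples above all FVB samples. Xbp1, the transcription factor that expands the secretory apparatus, had 8999, 7184 and 9329 in PyMT against 1641, 1564 and 1443 in FVB and rose by 2.45 ± 0.21 (SE) (edgeR adjusted p = 0.00121). Hspa5, the chaperone BiP, had 8131, 6634 and 7084 in PyMT against 2340, 2932 and 2391 in FVB and rose by 1.51 ± 0.20 (SE) (edgeR adjusted p = 0.00382). For both, the lowest PyMT library was well above the highest FVB library. Derl3, part of the channel that removes misfolded proteins, had 131, 294 and 125 in PyMT against 23.2, 12.3 and 18.5 in FVB with a log2 fold change of 3.33 ± 0.57 (SE) (edgeR adjusted p = 0.00885). Sdf2l1 (2.37), Sec61b (1.49), Calr (1.22), Hsp90b1 (1.14), Surf4 (1.12), Sec23b (1.26) and Pdia4 (1.09) rose too. Ddit3, the stress-induced factor CHOP, was at 82.8, 20.9 and 67.5 in PyMT against 137, 57.8 and 72.2 in FVB and overlapped. The number called was 8 without PyMT replicate 1, 17 without PyMT replicate 2 and 18 with scaling by library size only. Hsp90b1 lost its call without PyMT replicate 1 (edgeR adjusted p = 0.0519), Sec23b without FVB replicate 2 (0.0574), and Pdia4 in 4 of the 6 fits without a library (up to 0.0870).

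The endoplasmic reticulum stress element, searched on either strand, stood within 250 bases before the start of 7 of the 21 list members with a RefSeq window (Calr, Canx, Hspa5, Hsp90b1, Pdia6, Derl3 and Dnajc3), against 0.13% of 27025 genes. It is bound by ATF6 and XBP1. Of these 7 genes, Calr, Hspa5, Hsp90b1 and Derl3 rose. The windows of Hspa5 and Derl3 are shown, with the motif in capitals, because their increases were among the clearest and the largest of the list. They are plus-strand sequence of the same table and matched mm9 at chr2:34627360-34627609 and chr10:75355893-75356142.
Hspa5: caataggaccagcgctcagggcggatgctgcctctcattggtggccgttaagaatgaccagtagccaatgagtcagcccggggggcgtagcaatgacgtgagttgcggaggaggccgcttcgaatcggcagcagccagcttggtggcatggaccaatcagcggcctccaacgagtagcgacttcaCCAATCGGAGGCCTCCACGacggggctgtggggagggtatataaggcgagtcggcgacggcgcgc
Derl3: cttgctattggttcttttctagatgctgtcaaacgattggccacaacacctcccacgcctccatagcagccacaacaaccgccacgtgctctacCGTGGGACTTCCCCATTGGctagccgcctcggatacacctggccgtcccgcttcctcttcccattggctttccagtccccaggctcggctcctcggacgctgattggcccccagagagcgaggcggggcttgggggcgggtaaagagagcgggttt

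Luminal epithelial genes were higher in PyMT by a narrower margin than milk genes. Of 22 tested, 11 rose and 0 fell, with a median log2 fold change of 1.25. Elf5, the transcription factor of the alveolar lineage, had 4713, 2812 and 5097 in PyMT against 688, 835 and 883 in FVB and a log2 fold change of 2.39 ± 0.27 (SE) (edgeR adjusted p = 0.00223). Epcam, a pan-epithelial adhesion molecule, had 4965, 5092 and 4900.4 in PyMT against 1233, 2023 and 1489.8 in FVB, and the luminal keratin Krt18 had 4071, 3686 and 4510.1 in PyMT against 1658, 1823 and 1884 in FVB. Neither overlapped, and they rose by 1.65 and 1.19 on the log2 scale (edgeR adjusted p = 0.00395 and 0.0064). Not every luminal gene followed. Krt19 had 1063, 1009.5 and 1618 in PyMT against 2218, 2471 and 1799.9 in FVB, lower in all PyMT samples (log2 fold change -0.82 ± 0.25 (SE), edgeR adjusted p = 0.0706), and Krt7 overlapped at 393, 507 and 369 in PyMT against 508, 432 and 523 in FVB. The count of 11 fell to 7 without FVB replicate 2 or PyMT replicate 1 and to 6 without PyMT replicate 3, where 1 gene was called lower.

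Genes listed for hormone-sensing luminal cells went the other way, and in which cells of this bulk tissue they changed was not tested. Of 15, 13 were tested, 0 rose and 3 fell, and 12 of the 13 were negative, with a median log2 fold change of -2.37. Esr1, estrogen receptor alpha (chr10:5340927-5734948 of mm9, minus strand), had 300.0, 275 and 333 in PyMT against 1558, 1295 and 1118 in FVB. Foxa1, the pioneer factor that opens chromatin for it, had 38.3, 54.2 and 91.3 in PyMT against 330.3, 575 and 425 in FVB. Areg, amphiregulin, the EGF receptor ligand that relays the estrogen signal in ducts, had 68.5, 27.1 and 68.1 in PyMT against 873, 392 and 418 in FVB. The highest PyMT library was below the lowest FVB library by more than 3 times for each. Their log2 fold changes were -2.13 ± 0.21 (SE), -2.84 ± 0.41 (SE) and -3.35 ± 0.49 (SE) (edgeR adjusted p = 0.00156, 0.00464 and 0.00499), and all held without each of the 6 libraries.

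The progesterone branch had the same order of groups and more scatter. Pgr, the progesterone receptor, had 41.8, 0 and 97.6 in PyMT against 921, 389.5 and 258 in FVB, and its paracrine target Wnt4 had 24.0, 0 and 56.2 in PyMT against 268, 363 and 289 in FVB. Neither passed the test, with log2 fold changes of -3.44 ± 1.09 (SE) and -3.46 ± 1.00 (SE) and edgeR adjusted p of 0.0803 and 0.0621, and PyMT replicate 2 was at 0 for both. Tnfsf11, the progesterone target RANKL, was not tested and had at most 66.8 in PyMT against 19.7, 486 and 424 in FVB, and Calca, also left out by the filter, had 10.7, 0 and 0.567 in PyMT against 1.16, 328 and 547 in FVB. In both, FVB replicate 1 sat with the PyMT libraries. Prlr, the prolactin receptor, was lower in all PyMT samples at 2976, 2949 and 3182 in PyMT against 4781, 5619.7 and 4319 in FVB (log2 fold change -0.70 ± 0.19 (SE), edgeR adjusted p = 0.0527). Gata3, the luminal master factor, was the list's only member with a positive change, at 1733, 1648 and 1539.7 in PyMT against 714, 1265 and 1056 in FVB (log2 fold change 0.69 ± 0.22 (SE), edgeR adjusted p = 0.0856). Without PyMT replicate 2 the list had 5 decreases and without PyMT replicate 3 it had 6. DESeq2, edgeR's exact and likelihood ratio tests, the fit of all 24 samples and counts divided by the size of the peak each gave 9.

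Several basal and myoepithelial genes were lower in PyMT. Of 18 tested, 7 fell and 1 rose, 17 were negative, with a median log2 fold change of -1.67. Acta2, smooth muscle actin, had 717, 369 and 937 in PyMT against 1916, 3293 and 3769 in FVB, and Myh11, smooth muscle myosin, had 559, 155 and 650.1 in PyMT against 2232, 2750.5 and 3149 in FVB. Oxtr, the oxytocin receptor through which milk ejection is triggered, had 195, 152 and 465 in PyMT against 1356, 2436 and 2010.5 in FVB. Groups did not overlap, and the log2 fold changes were -2.14 ± 0.39 (SE), -2.56 ± 0.48 (SE) and -2.82 ± 0.45 (SE) (edgeR adjusted p = 0.0112, 0.0128 and 0.00703). Mylk (-1.99) and Tagln (-2.03) of the contractile apparatus, Jag2 (-1.88) and Col17a1 (-1.66) fell too. Acta2 and Myh11 lost their calls without PyMT replicate 1 (edgeR adjusted p = 0.0559 and 0.0513), Jag2 without FVB replicate 2 (0.0521), Tagln without FVB replicate 2, FVB replicate 3 or PyMT replicate 1 (up to 0.127), and Col17a1 without any of those or PyMT replicate 3 (up to 0.0885).

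Among the keratins and the transcription factor that define the basal layer, Krt5 had 621, 262 and 424 in PyMT against 376, 950.2 and 566 in FVB, Krt14 had 534, 167 and 285 in PyMT against 380.1, 667 and 637 in FVB and Trp63 had 309.8, 387 and 253 in PyMT against 307, 427 and 433 in FVB, and for each the groups overlapped without passing the test (edgeR adjusted p = 0.45, 0.287 and 0.486). Itgb4, the hemidesmosome integrin, rose by 1.01 ± 0.19 (SE) with 1370.1, 1272 and 1649.7 in PyMT against 614, 783 and 725 in FVB (edgeR adjusted p = 0.0127), just past a fold change of 2. Its fold change dropped below 2 without FVB replicate 1 or PyMT replicate 3. Cnn1, the contractile protein calponin, was lower in all PyMT samples at 58.8, 7.30 and 62.4 in PyMT against 156, 302 and 283 in FVB and did not pass (edgeR adjusted p = 0.0582). The contractile genes are also expressed by vascular smooth muscle, and endothelial markers were lower in the same samples, and the share of each was not tested. The number of decreases was 4 without FVB replicate 2 and 3 without PyMT replicate 1.

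The adipocyte program was lower in PyMT throughout. All 25 genes were tested and negative, 24 fell and 0 rose, and the median log2 fold change was -2.48. Adipoq, adiponectin, had 587, 684 and 644 in PyMT against 4627, 3179 and 4241 in FVB. Plin1, the coat protein of lipid droplets, had 619.6, 1539 and 979.8 in PyMT against 6788, 4774 and 5436 in FVB. Lep, leptin, had 183, 80.3 and 256 in PyMT against 927, 1234 and 2781 in FVB. PyMT libraries were several times below FVB libraries in each case, with log2 fold changes of -2.66 ± 0.21 (SE), -2.45 ± 0.34 (SE) and -3.23 ± 0.54 (SE) (edgeR adjusted p = 9.23e-04, 0.00407 and 0.00808). The lowest log2 fold change of the list was that of Aqp7, the glycerol channel, with 46.3, 85.5 and 86.2 in PyMT against 914, 643 and 787 in FVB (-3.43 ± 0.32 (SE), edgeR adjusted p = 0.00138).

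Pparg, the master factor of fat cells, had 75.7, 403 and 159 in PyMT against 1211, 807 and 943 in FVB, a log2 fold change of -2.24 ± 0.53 (SE) (edgeR adjusted p = 0.0301), and its partner Cebpa had 466, 803 and 600.2 in PyMT against 3091, 2341 and 2483 in FVB (-2.09 ± 0.24 (SE), edgeR adjusted p = 0.00223). The Pparg call was lost in 5 of the 6 fits that left out a library (edgeR adjusted p up to 0.117), and the Cebpa call in none. Cyp2e1, a cytochrome P450 of liver and fat, had 495, 382 and 919.6 in PyMT against 3274, 2781 and 4377 in FVB (-2.53 ± 0.36 (SE), edgeR adjusted p = 0.00464). Gpd1, glycerol-3-phosphate dehydrogenase, was the member that was not called, with 2844, 9634 and 2346 in PyMT against 19558, 8788 and 5906 in FVB and PyMT replicate 2 above both lower FVB libraries. PyMT replicate 2 was the highest PyMT library for Pparg, Plin1, Fabp4, Dgat2 and Gpd1. Fabp4 and Dgat2 lost their calls without PyMT replicate 3, and Dgat2 also without PyMT replicate 1 (edgeR adjusted p up to 0.0859). Leaving out 1 library gave 17 to 24 decreases. The fit of all 24 samples gave 20 and did not call Cyp2e1 (edgeR adjusted p = 0.0622).

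Brown fat genes had a median log2 fold change of -1.25, and all 9 tested were negative. The quasi-likelihood test of edgeR called 0 of them, with 0 at an unadjusted p under 0.05, and DESeq2 called 0. Ucp1, the uncoupling protein of brown fat, had 223, 3765 and 185 in PyMT against 4402, 1039 and 802 in FVB. PyMT replicate 2 was near FVB replicate 1 and far above the other PyMT libraries. Without PyMT replicate 2, 2 of the 9 were called lower, at a median of -2.85. Without FVB replicate 1 the median was -0.49 and 0 were called.

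Fatty acid synthesis was uneven. Of 16 genes, 3 fell and 1 rose. Scd1, the desaturase that makes oleic acid, fell from 281000, 267460 and 200770 in FVB to 32926, 68518 and 32105 in PyMT (-2.51 ± 0.36 (SE), edgeR adjusted p = 0.00442). Slc25a1, the mitochondrial citrate carrier, fell as well (-1.97). Mlxipl, the carbohydrate-response factor ChREBP, had 197, 213 and 238 in PyMT against 1755, 989.6 and 617 in FVB (-2.38 ± 0.38 (SE), edgeR adjusted p = 0.00653). Srebf1, the sterol-regulated factor that drives lipogenic genes, moved in the other direction with 8254, 10404 and 8732 in PyMT against 3997, 3246 and 2925 in FVB (1.42 ± 0.22 (SE), edgeR adjusted p = 0.00581). Fasn, fatty acid synthase, had 18690, 70503 and 19043 in PyMT against 253320, 154040 and 84986 in FVB and did not pass (edgeR adjusted p = 0.0518). Acly overlapped at 9345, 14634 and 8354 in PyMT against 24921, 16656 and 7711 in FVB. The decreases numbered 8 without FVB replicate 3, which was the lowest control for most of these genes, and 6 without PyMT replicate 2, the highest PyMT library for most of them. Slc25a1 was called in 2 of the 6 fits without a library (edgeR adjusted p up to 0.146).

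Stromal collagens were lower in PyMT. Of 17 genes, 14 fell and 0 rose, with a median log2 fold change of -1.79. Col3a1, the fibrillar collagen of soft tissue, had 16335, 14704 and 18813 in PyMT against 50105, 60621 and 89837 in FVB, and Col1a1 had 7906, 5246 and 8366 in PyMT against 19431, 24428 and 44897 in FVB. Col4a1 of basement membranes had 4497, 3415 and 5594 in PyMT against 9240.5, 11946 and 18354 in FVB. None of the 3 overlapped between genotypes, and FVB replicate 3 was the highest library for each. They changed by -2.01 ± 0.28 (SE), -2.04 ± 0.36 (SE) and -1.55 ± 0.32 (SE) on the log2 scale (edgeR adjusted p = 0.00434, 0.0105 and 0.0177). Col12a1, Col16a1 and Col8a1 overlapped, with log2 fold changes of -0.16, -0.02 and 0.31. Without PyMT replicate 1 the count of decreases was 8. Col1a1 lost its call there (edgeR adjusted p = 0.0549), and Col4a1 without any of the PyMT replicates (up to 0.0854).

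Other matrix and fibroblast genes followed the collagens, with 23 decreases and 0 increases among 28 and a median of -1.71. Loxl2, a collagen-crosslinking oxidase, had 293, 270.1 and 300.1 in PyMT against 1417, 1533 and 1388 in FVB (-2.33 ± 0.17 (SE), edgeR adjusted p = 6.55e-04). Pdgfra, the receptor that marks fibroblasts, had 436, 557 and 617 in PyMT against 2048, 2052 and 2462 in FVB (-2.03 ± 0.20 (SE), edgeR adjusted p = 0.00156), and Mmp2, gelatinase A, had 441, 427 and 604 in PyMT against 2885, 1731 and 2816 in FVB (-2.34 ± 0.27 (SE), edgeR adjusted p = 0.00222). The groups were far apart in these genes. Fn1 (-2.14), Sparc (-1.94), Lum (-2.27) and Postn (-1.44) fell as well, the last only in the fit of all libraries and the one without FVB replicate 1. Bgn, biglycan, overlapped at 924, 809 and 540.1 in PyMT against 963, 858 and 1563 in FVB. Scaling by library size only left 15 of the 28 called.

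Endothelial genes were lower in PyMT, with 15 of 23 called, 0 higher and a median of -1.98. Vwf, the clotting factor stored in endothelium, had 326, 237 and 229 in PyMT against 1336, 1534 and 1680.1 in FVB (-2.53 ± 0.21 (SE), edgeR adjusted p = 0.00106). Pecam1 had 326, 355 and 412 in PyMT against 1354, 938 and 1965 in FVB (-1.96 ± 0.28 (SE), edgeR adjusted p = 0.0045), and Kdr, the VEGF receptor, had 356, 376 and 205 in PyMT against 1408, 818 and 1444 in FVB (-1.98 ± 0.31 (SE), edgeR adjusted p = 0.00618). Prox1, a lymphatic factor, was at 80.1, 83.4 and 88.5 in PyMT against 57.9, 42.4 and 74.0 in FVB, the only member with a positive log2 fold change, and it did not pass. The count was 9 without FVB replicate 3 and 7 without PyMT replicate 3.

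Imprinted genes, many of which limit or promote fetal growth, were lower as a group. Of 18 tested, 10 fell and 1 rose, with a median of -2.19. H19, a noncoding RNA of the Igf2 locus (chr7:149761434-149764048 of mm9, minus strand), had 454, 365 and 123 in PyMT against 4494, 2604 and 1539 in FVB, and Igf2 had 0, 0 and 10.2 in PyMT against 163, 150.4 and 86.3 in FVB. Cdkn1c, the cell cycle inhibitor p57, had 105, 54.2 and 86.2 in PyMT against 280.5, 512 and 596 in FVB, and the noncoding RNAs Meg3 and Rian had log2 fold changes of -2.10 and -2.06. The log2 fold change was -3.22 ± 0.55 (SE) for H19, -5.09 ± 1.33 (SE) for Igf2 and -2.49 ± 0.39 (SE) for Cdkn1c (edgeR adjusted p = 0.00876, 0.0428 and 0.00641), and the call of Igf2 was lost in 4 of the 6 fits without a library. Igf2r, the receptor that clears IGF2, rose with 4377, 5111 and 5457 in PyMT against 2335, 2021 and 2190.2 in FVB (1.18 ± 0.19 (SE), edgeR adjusted p = 0.00733). The list also holds Dcn, a fibroblast gene of the matrix list, and its decreases numbered 6 without FVB replicate 3 or PyMT replicate 1.

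Proliferation genes had positive medians, and the number called depended on the test. Of 30 DNA replication genes 4 rose and 0 fell, at a median of 1.13. Of 30 mitosis genes 3 rose and 0 fell, at a median of 1.37, and all 30 had a positive log2 fold change. Over all tested genes 3.58% rose and 6.46% fell. Pcna, the sliding clamp of the replication fork, had 971, 1005 and 972 in PyMT against 331, 484 and 406 in FVB (1.26 ± 0.20 (SE), edgeR adjusted p = 0.00606). Rrm2, the regulated subunit of ribonucleotide reductase, had 1216, 988 and 1446 in PyMT against 54.5, 372 and 196 in FVB (2.55 ± 0.57 (SE), edgeR adjusted p = 0.0251). Ube2c, which loads ubiquitin for the anaphase-promoting complex, had 358, 566 and 519 in PyMT against 57.9, 147 and 131 in FVB (2.09 ± 0.38 (SE), edgeR adjusted p = 0.0115), and Cdca8, aurora kinase B's partner borealin, had 576, 400.5 and 542 in PyMT against 39.4, 142 and 141 in FVB (2.23 ± 0.46 (SE), edgeR adjusted p = 0.0188). The other increases were Cdc45, Rrm1 and Aurka. DESeq2 called 10 replication and 8 mitosis genes, edgeR's exact and likelihood ratio tests 9 and 7, and the fit of all 24 samples 3 and 0, in which Ube2c, Cdca8, Aurka, Rrm2 and Cdc45 were not called. Pcna and Ube2c kept their calls without each of the 6 libraries. Rrm2 lost its call without FVB replicate 3, PyMT replicate 1 or PyMT replicate 3, Cdca8 without PyMT replicate 1 or 3, and Cdc45, Rrm1 and Aurka in 4 or 5 of the 6 fits (edgeR adjusted p up to 0.125).

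The control libraries were spread widely in these genes. Mki67, the classic proliferation antigen, had 5313, 4959 and 6016 in PyMT against 263, 3283 and 1864 in FVB, and Top2a, the topoisomerase of dividing cells, had 2297, 2534 and 3208 in PyMT against 132, 2071 and 929 in FVB. FVB replicate 1 was lower than the other FVB libraries by 7 times or more in both, and FVB replicate 2 came close to the PyMT libraries for Top2a. The log2 fold changes were 1.59 ± 0.69 (SE) and 1.36 ± 0.74 (SE) (edgeR adjusted p = 0.188 and 0.283). Without FVB replicate 1, 6 replication genes and 8 mitosis genes were called higher, while the medians dropped to 0.75 and 0.91. Without PyMT replicate 3 the counts were 1 and 1, without PyMT replicate 1 they were 1 and 2, and without FVB replicate 3 they were 2 and 2. Dnmt1, the maintenance DNA methyltransferase (1.00, edgeR adjusted p = 0.0688), and Hells, a chromatin remodeler (1.17, edgeR adjusted p = 0.3), were higher in all PyMT samples and did not pass. Dnmt1 was called in 4 of 18 alternatives of test, scaling, filter or library left out, and Top2a in 0. The paper lists Dnmt1 as differentially expressed at hyperplasia. Its qPCR of the sequenced samples found more Dnmt1 and Top2a in PyMT at every stage. Diaph3, a formin of dividing cells, overlapped at 364, 203 and 499.8 in PyMT against 39.4, 284 and 167 in FVB (edgeR adjusted p = 0.3).

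**Figure D5:**
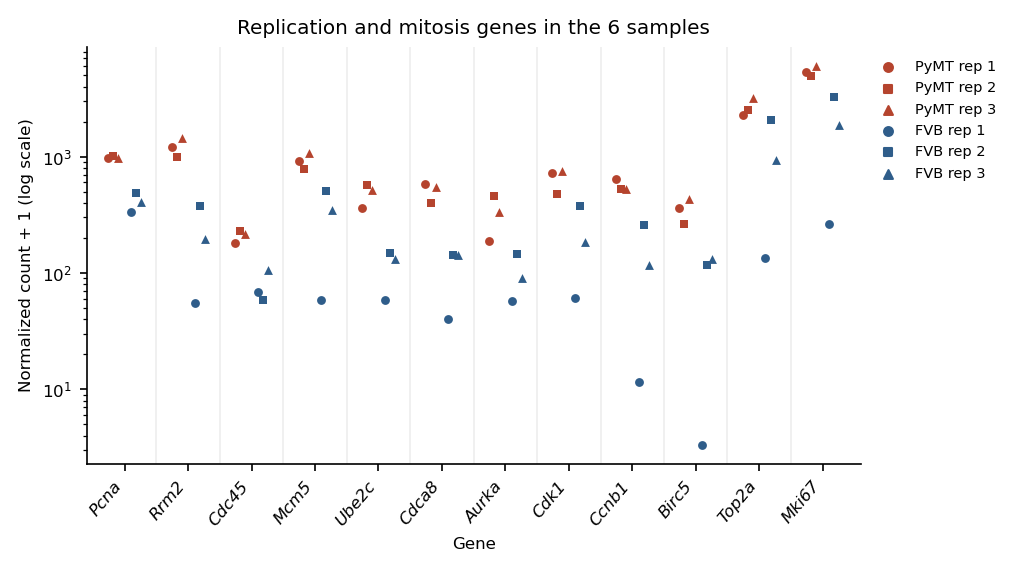
Normalized count plus 1 (log scale) of 12 replication and mitosis genes in the 3 PyMT (red) and 3 FVB (blue) libraries, with replicates 1, 2 and 3 as circles, squares and triangles. PyMT points lie above FVB points for every gene shown, and FVB replicate 1 is the lowest library for all of them except Cdc45, with Mki67 at 263 where FVB replicates 2 and 3 had 3283 and 1864.

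E2F factors, which switch on S phase genes, and the pocket proteins that restrain them gave 1 call. Among 13, E2f2 rose and 0 fell, with a median of 0.38, where 3.58% of all tested genes rose and 6.46% fell. E2f2 had 112, 173 and 137 in PyMT against 32.5, 37.8 and 42.3 in FVB (1.90 ± 0.46 (SE), edgeR adjusted p = 0.0345), a separation at a low level that lost its call in 5 of the 6 fits without a library. E2f1 overlapped at 69.4, 91.8 and 131 in PyMT against 81.1, 92.6 and 106 in FVB, and Rb1 at 1708, 1653 and 1339 in PyMT against 1472, 1277 and 823 in FVB. Motifs of E2F (TTTCCCGC, TTTGGCGC or TTTCGCGC on either strand) stood in the 250 bases before the start of 11 of the 24 replication genes with a window, of 2 of the 25 mitosis genes and of 1.78% of all genes, as a description of the letters only.

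The genes of the proteins that middle T binds or activates were close to the background. Of 20, 0 rose and Plcg1 fell, with a median of -0.08, equal to that of all genes, which scaling by library size only moved to 0.19 for both. Plcg1, phospholipase C gamma 1, had 828, 704 and 883 in PyMT against 1442, 1777 and 2086 in FVB (-1.14 ± 0.20 (SE), edgeR adjusted p = 0.0097), a call lost without FVB replicate 3, PyMT replicate 1 or PyMT replicate 2. Src had 940.1, 944 and 1018 in PyMT against 451, 487 and 752 in FVB (0.78 ± 0.23 (SE), edgeR adjusted p = 0.0623), and the PI3K subunit Pik3r1 had 7402, 8122 and 6422 in PyMT against 4832, 4363 and 4284 in FVB (0.69 ± 0.19 (SE), edgeR adjusted p = 0.0529). Both were higher in all PyMT samples without passing. Akt2, an AKT kinase gene, went the other way and did not pass either. Its log2 fold change was -1.41 to -0.79 under the 18 alternatives of test, scaling, filter or library left out. It was called lower in 8 of them, where Src was called higher in 1 and Pik3r1 in 0. Pik3ca, the catalytic subunit, overlapped at 1242, 978 and 907 in PyMT against 1209, 922 and 1119.8 in FVB. These are levels of RNA and say nothing of kinase activity.

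Among transcripts that MAPK signaling is known to raise, 5 of 17 rose and 0 fell, with a median of 0.46. The ETS factor Etv1 had 404, 849 and 455 in PyMT against 74.2, 91.0 and 62.6 in FVB (2.89 ± 0.35 (SE), edgeR adjusted p = 0.00271), and Etv5 had 1116, 1130.5 and 993 in PyMT against 173, 214 and 429.9 in FVB (1.98 ± 0.33 (SE), edgeR adjusted p = 0.00814). Dusp5, the nuclear ERK phosphatase, had 526, 595 and 538 in PyMT against 44.0, 26.2 and 132 in FVB (3.03 ± 0.55 (SE), edgeR adjusted p = 0.0112). Groups were well apart for these, and Ier3 (2.41) and Epha2 (1.54) rose too. Epha2 lost its call without FVB replicate 2, PyMT replicate 1 or PyMT replicate 3 (edgeR adjusted p up to 0.0742). Dusp6 had 602, 678 and 856 in PyMT against 313, 672 and 562 in FVB, Spry4 had 85.5, 41.7 and 127 in PyMT against 133, 101 and 238 in FVB, Egr1 had 101, 39.6 and 209.9 in PyMT against 90.4, 535 and 388 in FVB and Myc had 320.5, 181 and 618 in PyMT against 305, 596 and 975 in FVB, and all of them overlapped. Ccnd1, cyclin D1, had 1696, 1296 and 1746 in PyMT against 414, 1577 and 2138 in FVB and overlapped (0.20 ± 0.49 (SE), edgeR adjusted p = 0.835), with FVB replicate 1 the lowest library.

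Immediate early genes, which respond within minutes to growth signals and to handling of tissue, were mixed, with 1 increase and 3 decreases among 16. Scaling by library size only gave 2 increases and 1 decrease and moved their median from -0.25 to 0.04. For these and the clock genes below, the shares over all tested genes were 3.58% increases and 6.46% decreases. Atf3 rose (2.13 ± 0.55 (SE)) and Klf4 (-2.43 ± 0.30 (SE)), Dusp1 (-1.12 ± 0.28 (SE)) and Egr2 (-2.19 ± 0.58 (SE)) fell, the other 3 calls were each kept in 1 of the 6 fits without a library, and Klf4 kept its call in all, at 77.5, 62.6 and 101 in PyMT against 488, 413 and 402 in FVB. Clock genes gave 1 increase (Hlf, 1.65 ± 0.22 (SE)) and 3 decreases (Nr1d1, Per3 and Cry2) among 16, and the decreases ran from 0 to 4 when a library was left out, with 1 without FVB replicate 1. Nr1d1 was called in 4 of these 6 fits, Per3 in 2 and Cry2 in 1. Arntl, the core clock activator, overlapped at 126, 64.7 and 194 in PyMT against 111, 189 and 102 in FVB. 

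Of 23 Wnt pathway genes, 3 fell and 0 rose, with a median of -1.01, where 6.46% of all tested genes fell and 3.58% rose. The receptors Fzd4 (-2.10 ± 0.37 (SE), edgeR adjusted p = 0.00949) and Fzd1 (-1.74 ± 0.25 (SE), edgeR adjusted p = 0.00479) and the secreted Dkk3 fell. Fzd4 lost its call without PyMT replicate 1 (edgeR adjusted p = 0.0526), and Dkk3 was called in 1 of the 6 fits without a library. Axin2, a feedback target of the pathway, had 98.8, 8.34 and 44.8 in PyMT against 224, 209.8 and 429 in FVB and did not pass (edgeR adjusted p = 0.0704). Lrp6, the co-receptor, overlapped at 2885, 2805 and 2702 in PyMT against 2864, 2419 and 2924 in FVB. Rspo1, a stromal ligand that amplifies Wnt signals and was left out by the filter, had 90.8, 2.09 and 3.40 in PyMT against 2.32, 437 and 779.7 in FVB.

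The macrophage, mast cell and lymphocyte lists each had 1 gene called lower and 0 called higher. Of all tested genes, 6.46% were called lower and 3.58% higher. Of 17 macrophage genes, Acp5 fell (-1.35 ± 0.24 (SE), edgeR adjusted p = 0.0103) and 0 rose, with a median of -0.57, and Csf1r had 785, 404 and 639 in PyMT against 933, 685 and 1148 in FVB with overlapping groups. Cd163, a marker of resident tissue macrophages, had 24.9, 19.8 and 155 in PyMT against 582, 234 and 489.9 in FVB, below FVB in all PyMT samples without passing (edgeR adjusted p = 0.067). Among 5 mast cell genes Mcpt4, a mast cell protease, fell from 68.4, 76.4 and 31.7 in FVB to 0.890, 0 and 0 in PyMT (edgeR adjusted p = 0.0164). Of 17 lymphocyte genes 5 were tested, and the IgM heavy chain Ighm was lower at 141, 152 and 68.6 in PyMT against 512, 298 and 433 in FVB (-1.80 ± 0.37 (SE), edgeR adjusted p = 0.0182). The hemoglobin genes Hba-a1 (-2.43) and Hbb-b2 (-2.90), which have near-identical copies, fell, and erythroid markers summed to 305 to 735 in PyMT and 1566 to 3727 in FVB. Sox10, on the Schwann cell list and also expressed in mammary epithelium, rose at 1328, 1475 and 1612 in PyMT against 269, 406 and 741 in FVB (1.64 ± 0.34 (SE), edgeR adjusted p = 0.0182), the myelin gene Pmp22 fell (-2.15), and Mbp (-0.44), also of myelin, overlapped. Calls were lost for Acp5 without PyMT replicate 3, for Mcpt4 without FVB replicate 1 or 2, for Ighm without FVB replicate 1, FVB replicate 3 or PyMT replicate 1, for Sox10 without FVB replicate 2, PyMT replicate 1 or PyMT replicate 3, and for Hbb-b2 without FVB replicate 1, FVB replicate 2 or PyMT replicate 3 (edgeR adjusted p up to 0.0955).

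The 12 largest decreases by the same rule held genes of several tissues. Alox12e, an epidermal-type lipoxygenase (chr11:70129112-70136130 of mm9, minus strand), had 3.56, 0 and 0 in PyMT against 115, 506 and 329.5 in FVB (-8.06 ± 1.09 (SE), edgeR adjusted p = 0.00378), with FVB replicate 2 highest. Its call was lost under limma voom with sample quality weights (adjusted p = 0.113). Ptprd, a receptor tyrosine phosphatase, had 41.0, 79.3 and 91.3 in PyMT against 1099.9, 973 and 885 in FVB (-3.80 ± 0.33 (SE), edgeR adjusted p = 0.00121). Ramp2, the adrenomedullin co-receptor, fell (-3.63 on the log2 scale), as did Reep1 (-4.51), the Wnt co-factor Pygo1 (-4.19) and the homeobox gene Irx4 (-4.23). Of these, Reep1 was called in 4 of the 6 fits without a library, Ramp2 and Irx4 in 2 and Pygo1 in 1 (edgeR adjusted p up to 0.141). Gm14236 (-3.64) and AL844840.2 (-5.29), a predicted gene and a predicted miRNA, are uncertain features.

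Skeletal muscle genes were among these decreases. Jph1, which couples membranes in muscle fibers, had 24.0, 1.04 and 20.4 in PyMT against 905, 316 and 25.6 in FVB, and Tmem182 had 41.0, 0 and 36.3 in PyMT against 807, 273 and 170.0 in FVB. Fsd2 had 37.4, 13.6 and 0 in PyMT against 1344, 568 and 70.5 in FVB, and Atp1b2 had 16.0, 0 and 15.9 in PyMT against 666, 207 and 74.0 in FVB. All 4 were highest in FVB replicate 1 and lowest among FVB in replicate 3, the order of the muscle markers (462640, 108430 and 67.8), and the part of muscle in these calls was not tested. Jph1 and Fsd2 were called in 1 of the 6 fits without a library, the one without FVB replicate 3, and Tmem182 and Atp1b2 in 2, those without FVB replicate 3 or PyMT replicate 2. The 15 skeletal muscle genes themselves overlapped between genotypes, and edgeR's quasi-likelihood test called 0 of them, with 1 at an unadjusted p under 0.05 and 0 called by DESeq2, at a median of -3.55. Under limma voom with sample quality weights their median was 1.24, with 12 of the 15 positive and 0 called, and the exact and likelihood ratio tests of edgeR called 1 lower. Without FVB replicate 3, 13 were called lower. Fhl1, a LIM-domain protein abundant in muscle, had 596, 821 and 161 in PyMT against 11370, 2489 and 587 in FVB, in the same order of FVB libraries, and overlapped (edgeR adjusted p = 0.0792). Txnip, the thioredoxin inhibitor, was lower in all PyMT samples at 5786, 6308 and 7579.9 in PyMT against 17411, 10511 and 8642 in FVB and did not pass (edgeR adjusted p = 0.096). Erbb4, an EGF receptor relative of lactation, overlapped at 135, 256 and 153 in PyMT against 108, 122 and 299 in FVB, as did Prdx4, a peroxiredoxin of the endoplasmic reticulum, at 525, 269 and 580.4 in PyMT against 140.2, 329 and 344 in FVB (edgeR adjusted p = 0.973 and 0.285).

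Many week 6 calls were also calls of the later stages, which were measured in other samples. Of the 534 genes higher at week 6, 316 (59.2%) were also called higher at week 8, 343 (64.2%) at week 10 and 393 (73.6%) at week 12, where 3.57%, 4.83% and 7.75% of all tested genes were called higher. Of the 964 lower genes, 619 (64.2%), 718 (74.5%) and 792 (82.2%) were called lower, where 6.37%, 9.09% and 13.0% of all genes were. Conversely, the shared increases made up 59.3%, 47.6% and 34.0% of the calls of those weeks and the shared decreases 65.1%, 52.9% and 40.9%. No gene was called in opposite directions. Called at week 6 and at no later week were 78 increases and 109 decreases.

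Whether an effect at week 6 differed from the mean effect of weeks 8, 10 and 12 was asked of a model with all 24 libraries and a level for each of 8 groups. With edgeR's quasi-likelihood test 0 of 14918 genes (0.0%) passed adjustment and 779 (5.22%) had an unadjusted p under 0.05, while edgeR's likelihood ratio test passed 22, DESeq2 32 and limma voom with sample weights 1. The smallest p values belonged to Lyrm7, Lgals12, Abcd2, Accn2 and Cxx1c, all with an edgeR adjusted p of 0.479. Lgals12, a galectin of fat cells, was at -1.67 at week 6 and at -3.81, -3.10 and -3.85 later, and Abcd2, a peroxisomal fatty acid transporter, was at -2.12 and then -4.02, -4.63 and -4.45 on the log2 scale. Both were lower than in the controls by less at week 6. Lyrm7, Accn2 and Cxx1c were at 0 in every PyMT library of week 6, so no fold is given for them.

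The list medians by week are given as a description. The median log2 fold change of the adipocyte list was -2.48 at week 6 and -3.87, -4.70 and -3.96 at weeks 8, 10 and 12. That of milk genes was 4.99 and then 3.74, 4.43 and 1.21. The mitosis list went from 1.37 to 1.97, 2.78 and 2.69, and the collagens from -1.79 to -1.80, -1.42 and -1.43. The hormone-sensing list was at -2.37 and then at -3.58, -2.99 and -3.41. No test of these differences between weeks was made for the lists.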

How the data were processed

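RNA was extracted from snap-frozen tissue, described as mammary tumor for the 3 PyMT mice and as normal mammary gland for the 3 FVB mice. It was depleted of ribosomal RNA and made into directional libraries. The authors aligned the reads with GSNAP to mm9 and deposited raw counts per gene, made with HTSeq. The annotation release and the strand setting of the counting are not given in the sources used here, so reads of overlapping genes, near copies and antisense partners could be split or shared.

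From the deposited counts, a gene was kept where 12 or more of the 24 samples reached a CPM of 1, out of 37991 in the table. PyMT and FVB of week 6 were compared with edgeR 4.0.16 (TMM scaling, quasi-likelihood test, R 4.3.3) in the 6 libraries of that week, with Benjamini-Hochberg adjustment. Calls needed an adjusted p below 0.05 together with a change of more than 2 times. SE was the log2 fold change divided by the square root of the test's F. Normalized counts were divided by DESeq2 1.42.0 size factors of the 24 samples. The fits were checked on simulated data. The difference from later weeks was fitted in 24 samples. Alternatives used DESeq2, edgeR's likelihood ratio, exact and glmTreat tests, limma 3.58.1 voom, other scalings and filters, counts divided by the size of a peak in the count distribution, the replicate block and each library left out. Replicates differed by a chi-square per gene of 36.9 to 173, so none counted as a duplicate. Each library is 1 mouse, and no batch is given in the labels.

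The genes named were taken from the following groups. Called genes whose normalized counts averaged 100 or more and whose groups did not overlap gave the 12 largest increases and 12 largest decreases. Each of 28 gene lists gave its 4 tested members with the smallest p and any other member whose value is given. The others were 13 genes that the paper names and the 5 genes with the smallest p in the difference test. Not all of the 4 members with the smallest p are described for each list. Ppargc1a, Cox8b, Slc27a2 and Dio2 of the brown fat list, for example, are not. The members and lists were chosen with earlier results of these data known. Coordinates are those of GENCODE M1 on mm9. Promoter letters came from RefSeq windows of GRCm38.p6, matched exactly to mm9, with 27025 genes having a window.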

Additional observations from a re-analysis of the deposited data

How the results depend on the processing

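The number of genes higher in PyMT at week 6 was 534 and stayed within 1.5 times of that under the alternatives of scaling, filter and test, except for 124 with edgeR's glmTreat against a fold change of 2, and it ran from 323 to 582 when a library was left out. The number lower was 964, with 1485 by DESeq2, 1497 by edgeR's likelihood ratio test, 250 by glmTreat and 534 to 1024 when a library was left out. The test of week 6 against later weeks gave 0 genes, with 32 by DESeq2, 22 by the likelihood ratio test, 1 by limma voom with sample quality weights and 0 to 2 when a library was left out. The replicate block gave 419 higher, 762 lower and 0 in the difference test, but the replicate numbers share only a number: same-numbered PyMT and FVB samples had correlations of their deviations of 0.03, -0.01 and 0.15, and pairs with the same number did not all correlate best with each other. Of the values for single genes under the alternatives, 2315 kept their direction and side of the threshold, 226 lost a call and 76 gained one. The direction turned in 10, all of genes that were not called in either fit: Ptprc was at 0.0758 with library size only and ran from -0.441 to 0.0203 when a library was left out, Lck ran from -1.30 to 0.0811 and Erbb4 from -0.237 to 0.694 when a library was left out, Acta1 was at 0.349 and Mylpf at 0.141 with limma voom, and the log2 fold change of Erbb4 was -0.0942 with counts divided by the size of the peak and -0.174 with limma voom (all on the log2 scale). Limma voom with sample quality weights also ended the calls of Reep1, Irx4, Aurka, Mcpt4, Egr2, Fsd2, Atp1b2, Jph1, Tmem182 and Lyrm7. Of the genes in lists or named above, 47 of the 69 higher and 65 of the 130 lower were called in all 6 fits that left out a library. Depth and the peaks in the count distribution limit genes at low counts, where a count of 0 in a PyMT library sets no fold. A count of 0 allows up to 3 counts in a library without a peak. In the libraries with a peak, at 14, 25 and 13 counts in PyMT replicates 1, 2 and 3, it allows more, and no bound was set there.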
